A study of Mus musculus with 10 samples.

Results

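Transcripts of 10 islet hormone and secretory granule genes, Ins1, Ins2, Gcg, Ppy, Sst, Pyy, Iapp, Chga, Pcsk2 and Ttr, were followed across tuft and non-tuft epithelial cells sorted from the inflamed mouse pancreas. The members were chosen by gene symbol, and all 10 were found among the 12160 genes listed in the deposited table, which holds only genes that passed a filter on variance across libraries and so favours genes that vary. Gene expression was measured by Smart-Seq2, a full-length RNA-seq protocol for very small samples, in 10 libraries of 100 sorted cells each. All animals were wild type and had pancreatitis induced by repeated injection of caerulein, a cholecystokinin analog that overstimulates acinar cells. The extraction text gives male CD1 mice whereas the strain field reads Mixed, and an age is not given in the sources used here. The 5 tuft libraries held Cd45-neg, EpCAM+, Siglec f+ cells, each taken from an individual mouse. The 5 non-tuft libraries held the remaining Cd45-neg, EpCAM+, Siglec f-neg cells, a gate that takes in any EpCAM+ epithelial cell, endocrine cells included, that lacks Siglec f. The study describes both kinds of cell as coming from 5 mice, and whether a tuft and a non-tuft library of the same number share a mouse is not stated in the sources used here. No library came from an untreated pancreas, so the effect of pancreatitis on these genes was not measured.

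The islets of Langerhans are clusters of endocrine cells scattered through the exocrine pancreas, and each main cell type is known by the hormone it stores. Beta cells make insulin and amylin, alpha cells make glucagon, delta cells make somatostatin and PP cells make pancreatic polypeptide. The hormones are cut from larger precursors by prohormone convertases inside dense-core granules, which are packed with granins such as chromogranin A and released on a calcium signal. Tuft cells are chemosensory epithelial cells that appear in the pancreas after injury.

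Values are given as log2(RPKM + 1), where RPKM is reads per kilobase of transcript, scaled to the reads mapped in each library, so that levels of different genes may be set side by side per length. The lowest value a library holds is called its floor here. It was 0 in all libraries other than non-tuft library 2, where it was 0.17, and a gene at the floor was simply listed there, because the read depth of the libraries is unknown.

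All 10 members had a lower mean in tuft than in non-tuft libraries, and 4 of them, Ppy, Chga, Pcsk2 and Ttr, passed the test for lower expression in tuft cells. The test was limma's moderated test on the log2 values over all listed genes, and a gene was called where its Benjamini-Hochberg adjusted p was under 0.05 and the groups differed more than 4-fold. These 4 of 10 members stand beside 3.99% of all listed genes that were called lower, and 0 members were called higher, beside 4.32% of all listed genes. In either direction, 8.31% of all listed genes were called. The median log2 fold change of the members was -3.91, also without Ppy and Gcg, against 0.02 over all listed genes. Of the 7 hormone genes, 1 was called, Ppy. The tuft libraries all lay below the non-tuft libraries for 2 members, Ppy and Ttr, a pattern found in 5.12% of all listed genes. In bulk samples, fewer cells of a type and less RNA per cell cannot be told apart, and this holds for each difference given here.

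**Figure D1:**
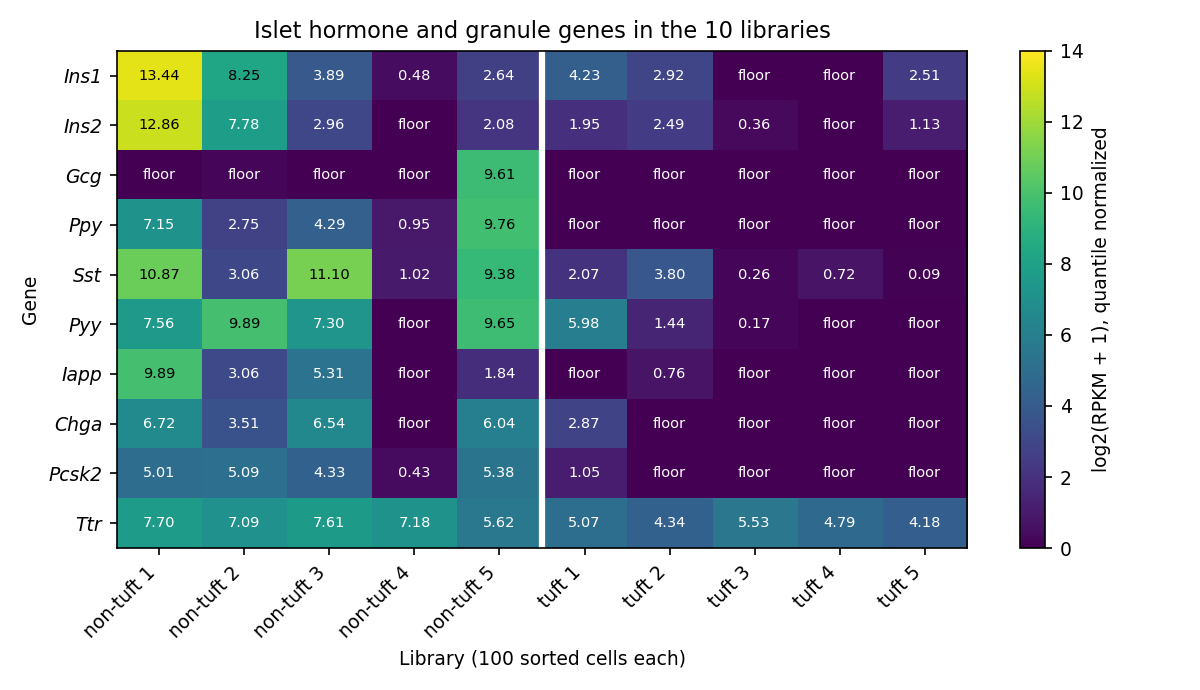
Level of each member, in log2(RPKM + 1), in the 5 non-tuft and 5 tuft libraries, with the value printed in each cell and brighter colours for higher values. The hormone rows change from library to library within the non-tuft group, non-tuft library 4 is low for every member but Ttr (7.18), and Ttr is the only row with values above 4 in all 10 libraries (4.18 to 7.70).

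The count of called members changed when 1 library was left out, which also leaves fewer libraries for the test. It was 2 when non-tuft library 1 or any one of tuft libraries 2 to 5 was left out, 3 when non-tuft library 3 or non-tuft library 5 was, and 7 when non-tuft library 4 was. Over all listed genes, 485 were called lower with every library in the fit. Without 1 of tuft libraries 2 to 5 this was 394 to 433. It was 464 without non-tuft library 1 or 3, 477 without non-tuft library 5 and 450 without non-tuft library 4. Non-tuft library 4 stood apart from the other non-tuft libraries, with 5 of the 10 members at the floor, against 0 or 1 in the other non-tuft libraries. Its acinar and ductal markers were at levels like those of the other non-tuft libraries, and 17 of 19 listed tuft markers were at the floor in it. Non-tuft library 5 and tuft library 5 held fibroblast markers. Of 13 listed fibroblast and endothelial markers, 11 and 12 were above the floor there, with summed linear values of 803.2 and 349.0, against 3.30 to 94.4 in the other libraries. The endothelial members of this list did not share the pattern as a set. Tek and Tie1 were at the floor in non-tuft library 5. Tek, at 4.56 to 6.42 in tuft libraries, and Esam were called higher there. Pecam1 was at 4.47 in non-tuft library 1, 3.31 in non-tuft library 5 and 2.12 in tuft library 5. Col1a1 and Col1a2, fibroblast collagens, were at 4.93 and 6.51 in non-tuft library 5, whereas Col1a1 was at the floor in the other non-tuft libraries. With both libraries numbered 5 left out, an alternative chosen after seeing the data, 1 member, Ttr, was called, beside 364 of all listed genes called lower.

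Markers of other cells also moved with the groups. Siglecf, the gene of the sorting marker, reached 5.62 to 7.52 in tuft libraries, and among non-tuft libraries only library 2 had a value above 0 (1.61). Epcam was at 7.44 to 10.87 over all libraries. All 19 listed tuft markers were called higher in tuft libraries, and their summed linear value was 5010 to 13810 there. In non-tuft libraries 1 to 5 this sum was 301.4, 639.6, 10.38, 1.36 and 687.2, so that the libraries low in tuft markers included library 3, where the 7 hormone genes summed to 2434 on the same scale, and library 4, where they summed to 2.36. Acinar markers were called lower in tuft libraries for 21 of 26 listed genes, with sums of 2379 to 133500 against 162200 to 197800. Cpa1, an acinar carboxypeptidase, was at 11.85 to 12.53 in non-tuft libraries. Leukocyte markers, of which 11 of 24 were listed, summed to 2.03 to 128.4 in non-tuft and 19.1 to 65.1 in tuft libraries, and Ptprc, which encodes Cd45, was called higher in tuft libraries. The part of these markers in the results was not tested.

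Ins1 and Ins2 encode the 2 mouse preproinsulins. The first 294 coding bases of Ins1 and the 300 of Ins2 aligned with them, from the NCBIM37 (mm9) annotation, are shown because the genes are near copies whose reads could be shared by counting. Capitals mark bases that differ between the genes or have no partner in the other gene.

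Ins1: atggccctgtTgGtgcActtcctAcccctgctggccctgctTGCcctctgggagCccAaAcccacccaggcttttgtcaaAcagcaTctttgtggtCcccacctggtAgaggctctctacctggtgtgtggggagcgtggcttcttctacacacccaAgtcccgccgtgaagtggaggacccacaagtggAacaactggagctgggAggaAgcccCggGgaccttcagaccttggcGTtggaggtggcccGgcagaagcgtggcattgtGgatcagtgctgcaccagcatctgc

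Ins2: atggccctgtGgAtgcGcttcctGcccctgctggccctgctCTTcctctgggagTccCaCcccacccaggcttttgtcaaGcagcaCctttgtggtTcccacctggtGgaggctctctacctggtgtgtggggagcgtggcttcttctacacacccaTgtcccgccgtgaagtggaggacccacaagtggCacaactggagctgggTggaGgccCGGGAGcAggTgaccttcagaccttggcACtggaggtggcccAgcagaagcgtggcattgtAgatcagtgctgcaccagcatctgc

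Ins1 lies on the plus strand of chr19:52338813-52339946 and Ins2 on the minus strand of chr7:149864561-149885415. The whole coding sequences of 327 and 333 bases were identical at 302 of 327 aligned positions (92.4%), with 6 further bases of Ins2 unpaired. The reads were 50 bases long. The 50-base windows of 1 transcript of each member were searched for in protein-coding transcripts. Of these windows, 7 of 967 (0.724%) in Ins1 and 7 of 429 (1.63%) in Ins2 were also found exactly in the other gene. No such window of the other 8 members was found in a protein-coding transcript of another gene, and noncoding transcripts were not searched. Of the 284 windows of the aligned coding sequences, 113 held at most 2 differences, so the split of reads between the insulin genes is uncertain where mismatches were allowed.

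The insulin genes were very high in a single non-tuft library and varied widely in the others. Ins1 was at 13.44, 8.25, 3.89, 0.48 and 2.64 in non-tuft libraries 1 to 5 and at 4.23, 2.92, 0, 0 and 2.51 in tuft libraries 1 to 5. Values overlapped between the groups, since non-tuft libraries 3, 4 and 5 lay within the tuft range. In non-tuft library 1, Ins1 ranked 6th and Ins2 9th from the highest of all listed genes. The log2 fold change of Ins1, tuft against non-tuft, was -3.81 (standard error 1.95, 95% interval -8.01 to 0.39, limma adjusted p = 0.248), and the difference did not pass the test.

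Ins2 followed Ins1 closely. It was at 12.86, 7.78, 2.96, 0 and 2.08 in the non-tuft libraries and at 1.95, 2.49, 0.36, 0 and 1.13 in the tuft libraries. Again the non-tuft libraries were spread from the floor to among the highest values of the table, and the groups overlapped. Its log2 fold change was -3.95 (standard error 1.87, 95% interval -8.00 to 0.10, limma adjusted p = 0.212). Ins1 was higher than Ins2 in 5 of 5 non-tuft libraries, by 0.61 ± 0.19 (SD, n = 5) on the log2 scale, whereas in tuft libraries the difference ran from -0.36 to 2.28. Without non-tuft library 1, the log2 fold changes were -1.88 for Ins1 and -2.02 for Ins2.

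Iapp encodes amylin, the peptide that beta cells store and release together with insulin. It was at 9.89, 3.06, 5.31, 0 and 1.84 in the non-tuft libraries and was listed at 0 in 4 tuft libraries, with 0.76 in tuft library 2. Non-tuft library 4, at 0, was the one non-tuft library that overlapped the tuft libraries. For Iapp the log2 fold change was -3.87 (standard error 1.38, 95% interval -6.84 to -0.90), which did not pass after adjustment (limma adjusted p = 0.0923), and the exact two-sided permutation test gave an unadjusted p of 0.0476. Without non-tuft library 4 the adjusted p was 0.0324, and Iapp was called. The span of Iapp, at chr6:142246943-142252481 (plus strand), overlaps that of an antisense protein-coding gene, Slco1a5, and the library kit does not mark strand. Of the 790 windows of 50 bases in the Iapp transcript, 0 were found on either strand in a protein-coding transcript of another gene. Reads from unspliced transcripts were not examined.

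Sst encodes somatostatin, the delta cell hormone that restrains secretion of insulin and glucagon. It was at 10.87, 3.06, 11.10, 1.02 and 9.38 in the non-tuft libraries and at 2.07, 3.80, 0.26, 0.72 and 0.086 in the tuft libraries. Non-tuft libraries 1, 3 and 5 were far above every tuft library, whereas 2 and 4 lay within the tuft range. The log2 fold change was -5.70 (standard error 1.77, 95% interval -9.51 to -1.88), the lowest of the members, and it missed the threshold (limma adjusted p = 0.0539, unadjusted exact permutation p = 0.0476). It was called without non-tuft library 2 (adjusted p = 0.0390) and without non-tuft library 4 (adjusted p = 0.0100), and the adjusted p rose to 0.14 without non-tuft library 3.

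Ppy and Pyy encode pancreatic polypeptide and peptide YY, related gut and islet hormones of the neuropeptide Y family. The genes are neighbours on the minus strand of chromosome 11, with Ppy at chr11:101961244-101962633, Pyy at chr11:101967990-101969146 and 5356 bases between them. Ppy was at 7.15, 2.75, 4.29, 0.95 and 9.76 in the non-tuft libraries and was listed at 0 in all 5 tuft libraries. It was the hormone for which the groups were fully apart, and it was called lower in tuft cells (limma adjusted p = 0.0211). The exact permutation p of 0.00794 was the smallest that 5 against 5 libraries can give. The adjusted p rose to 0.0602 without non-tuft library 1 and to 0.0502 to 0.0550 without any one tuft library, and Ppy was then not called. Since all its tuft values were 0, leaving out a tuft library did not move the difference in means. The standard error rose from 1.27 to between 1.43 and 1.45.

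Pyy was at 7.56, 9.89, 7.30, 0 and 9.65 in the non-tuft libraries and at 5.98, 1.44, 0.17, 0 and 0 in the tuft libraries. The non-tuft libraries were high with the exception of library 4, and tuft library 1 was the only tuft library near them. Its log2 fold change was -5.36 (standard error 1.70, 95% interval -9.03 to -1.69, limma adjusted p = 0.0594), which missed the threshold. Pyy was called without non-tuft library 4 (adjusted p = 0.0035) and without tuft library 1 (adjusted p = 0.0297), and the adjusted p was 0.15 without non-tuft library 2. With the replicate number as a block in the limma fit, Pyy was called (adjusted p = 0.0425).

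Gcg encodes proglucagon, the precursor of glucagon in alpha cells. It was at 9.61 in non-tuft library 5 and at the floor in the other 9 libraries. A single library therefore carried all of the signal, and the difference between the groups did not pass the test (limma adjusted p = 0.477, exact permutation p = 0.444). No fold is given for Ppy or Gcg, since the tuft libraries were all listed at 0.

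Among the genes of the granule itself, Chga encodes chromogranin A, an acidic granin of dense-core granules. It was at 6.72, 3.51, 6.54, 0 and 6.04 in the non-tuft libraries, at 2.87 in tuft library 1 and listed at 0 in the other 4 tuft libraries. Apart from non-tuft library 4, the non-tuft libraries were above every tuft library. Tuft against non-tuft, the log2 fold change was -3.99 (standard error 1.14, 95% interval -6.46 to -1.52), and Chga was called lower in tuft cells (limma adjusted p = 0.0379, unadjusted exact permutation p = 0.0476). The call was lost in 8 of the 10 fits that left out 1 library, where the adjusted p reached 0.103, and it was kept without non-tuft library 4, where the log2 fold change was -5.13 (adjusted p = 0.00238).

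Pcsk2 encodes prohormone convertase PC2, which cuts proglucagon, prosomatostatin and proinsulin. It was at 5.01, 5.09, 4.33, 0.43 and 5.38 in the non-tuft libraries, at 1.05 in tuft library 1 and listed at 0 in the other 4 tuft libraries. Non-tuft libraries other than 4 lay close together and above every tuft library, and library 4 lay within the tuft range. The log2 fold change was -3.84 (standard error 0.81, 95% interval -5.58 to -2.10, limma adjusted p = 0.00705, unadjusted exact permutation p = 0.0159). Pcsk2 was called in all 10 fits that left out 1 library, with an adjusted p of at most 0.0249, and its log2 fold change ran from -4.74 without non-tuft library 4 to -3.51 without non-tuft library 5. The gene lies at chr2:143371892-143642021 (plus strand), and its span overlaps those of 2 antisense noncoding genes. Whether their exons overlap was not examined, and reads from any shared stretch could not be told apart.

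Ttr encodes transthyretin, a carrier of thyroid hormone and retinol-binding protein that is abundant in islets, above all in alpha cells. It was at 7.70, 7.09, 7.61, 7.18 and 5.62 in the non-tuft libraries and at 5.07, 4.34, 5.53, 4.79 and 4.18 in the tuft libraries. It was above the floor in all 10 libraries, as was Sst, but at 7.18 it was also high in non-tuft library 4, and the groups did not overlap. Ttr did not follow Gcg, the alpha cell hormone gene. Its lowest non-tuft value, 5.62, was in library 5, the only library with Gcg above the floor (9.61). Which cells gave the Ttr reads was not tested. The means were 7.04 ± 0.84 in non-tuft and 4.78 ± 0.55 in tuft libraries (SD, n = 5 each). Tuft cells were 4.79-fold lower on this scale, a log2 fold change of -2.26 (standard error 0.47, 95% interval -3.28 to -1.23, limma adjusted p = 0.00709, exact permutation p = 0.00794). Ttr was called in all 10 fits that left out 1 library, with an adjusted p of at most 0.0240. The span of the gene overlaps that of 1 antisense noncoding gene. Here too overlap of exons was not examined, and reads from any shared stretch could not be told apart.

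**Figure D2:**
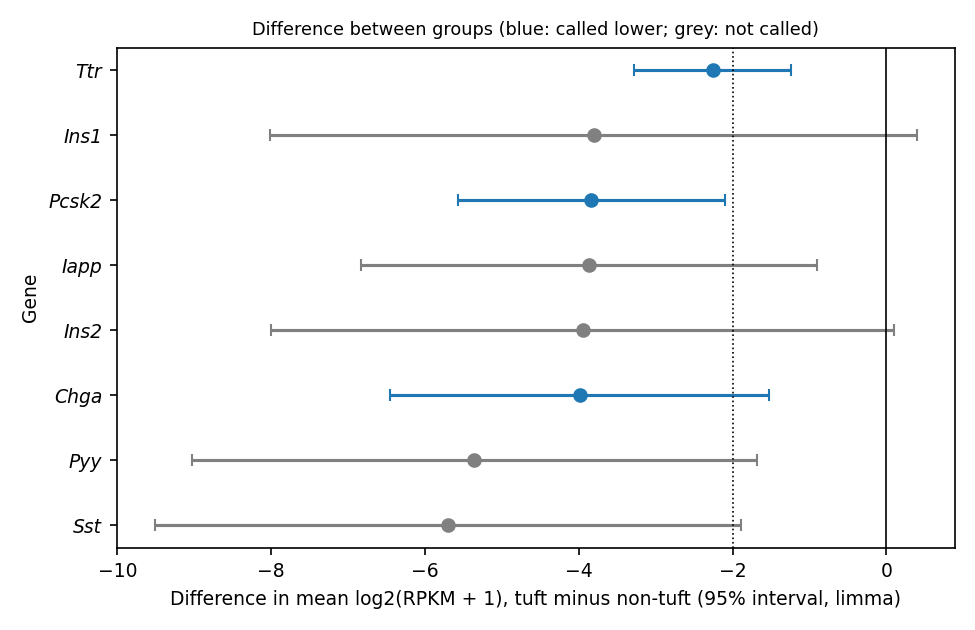
Log2 fold change of 8 members, tuft minus non-tuft, from limma, with bars for the 95% interval and n = 5 libraries a group, where 0 marks no difference and the dotted line at -2 the 4-fold threshold. The narrowest interval belongs to Ttr (-3.28 to -1.23), and the intervals of Ins1 and Ins2 reach past 0. Ppy and Gcg are left out, as every tuft library was listed at 0 for them.

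Windows of 250 bases before the start of transcription, from RefSeq on GRCm38.p6, were searched on both strands for TGACGTCA, the full cyclic AMP response element, for TGACGT, its shorter form contained in the full one, and for TATAAA. Windows were used for 8 of the 10 members. No window was at hand for Ins2, and Ttr was left out of the search. Sst and Chga were the only searched members whose windows held TGACGT. Their windows are shown in the direction of transcription with the match in capitals.

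Sst, chr16:23890845-23891094, minus strand: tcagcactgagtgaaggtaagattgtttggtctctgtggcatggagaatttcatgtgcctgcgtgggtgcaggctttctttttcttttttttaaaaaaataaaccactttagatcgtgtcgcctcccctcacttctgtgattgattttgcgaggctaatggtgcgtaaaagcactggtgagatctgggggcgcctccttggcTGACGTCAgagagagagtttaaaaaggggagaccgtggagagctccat

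Chga, chr12:102554691-102554940, plus strand: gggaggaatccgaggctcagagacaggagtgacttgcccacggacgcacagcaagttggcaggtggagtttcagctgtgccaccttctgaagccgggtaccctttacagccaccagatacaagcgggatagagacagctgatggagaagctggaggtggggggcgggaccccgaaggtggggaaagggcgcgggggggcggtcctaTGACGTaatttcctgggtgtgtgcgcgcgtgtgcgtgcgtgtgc

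The Sst window held TGACGTCA 48 to 41 bases before the start, and the Chga window held TGACGT 44 to 39 bases before it. Neither form was found in the windows of Ins1, Gcg, Ppy, Pyy, Iapp or Pcsk2. TGACGTCA was in 1.55% of the 32851 promoter windows of this length and TGACGT in 6.47%. TATAAA was in the windows of Gcg and Ppy and in 12.4% of all windows. A match is a description of the letters, and binding was not measured.

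The hormones that dominated a library differed among the non-tuft libraries. On the linear scale (2 to the log2 value, minus 1), the 7 hormone genes summed to 21670, 1489, 2434, 2.36 and 3122 in non-tuft libraries 1 to 5. Library 1 was an insulin library, with 85.5% of this sum from Ins1 and Ins2. In library 2, Pyy gave 63.6% and the insulins 35.1%. In library 3, Sst gave 90.4%. Library 5 had no leading hormone, with 27.8% from Ppy, 25.6% from Pyy, 24.9% from Gcg and 21.3% from Sst, while the insulins gave 0.271%. With 100 cells per library these are shares of transcript, not of cells, and how many endocrine cells entered a library is not known.

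In the tuft libraries the same sum was 85.96, 26.6, 0.612, 0.649 and 5.94. Tuft library 1 had the highest sum, 72.4% of it from Pyy, and it also held the highest tuft values of Chga and Pcsk2. In tuft libraries 3 and 4 the highest hormone value was 0.72 (Sst), so that shares there rest on values near the floor. Above the floor were 9, 9, 9, 5 and 10 members in non-tuft libraries 1 to 5, against 7, 6, 4, 2 and 4 in tuft libraries 1 to 5. Of all 12160 listed genes, 9765, 8407, 10718, 9811 and 10533 were above the floor in non-tuft libraries 1 to 5. In tuft libraries 1 to 5 these were 9669, 9396, 10409, 9627 and 10622.

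**Figure D3:**
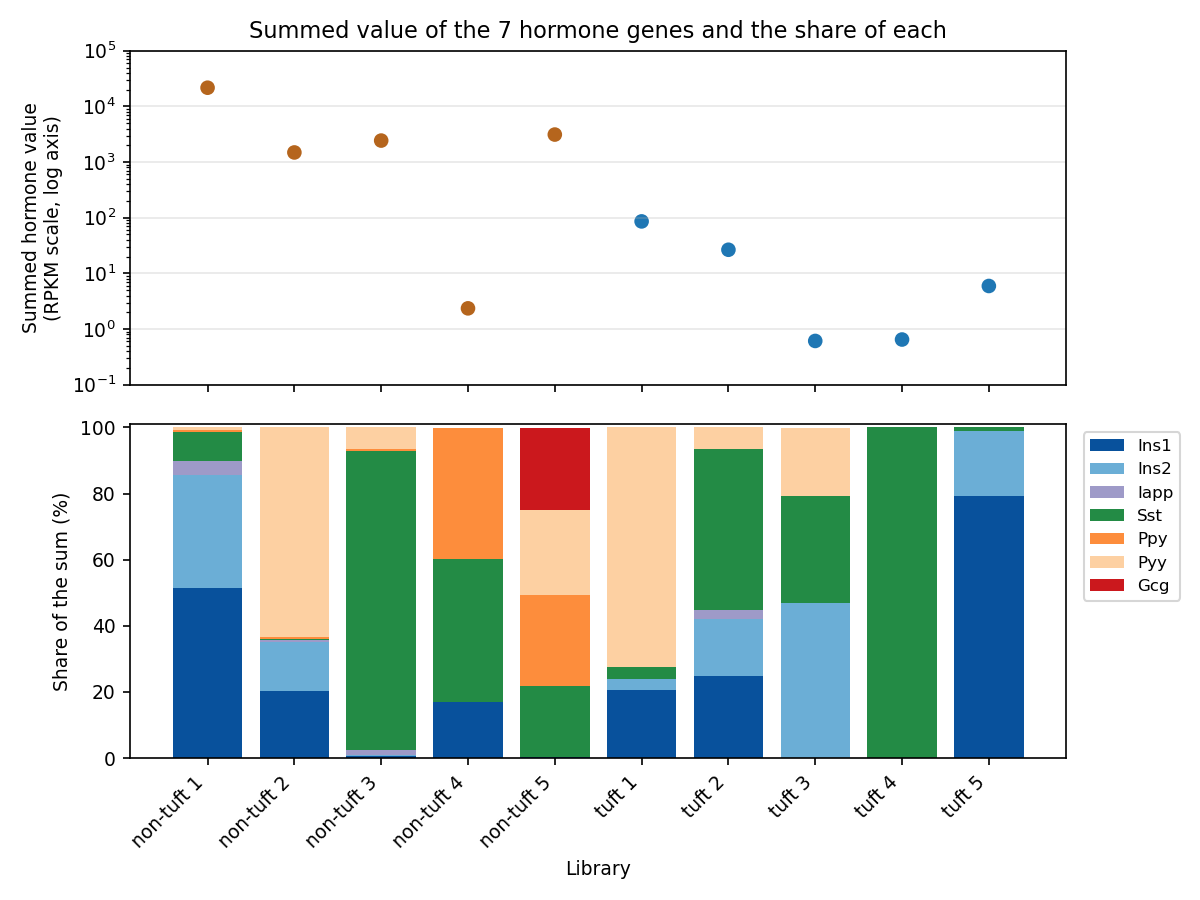
Summed linear value (RPKM scale) of the 7 hormone genes in each library on a log axis, as points, and the percent of that sum from each hormone, as stacked bars from 0 to 100. Insulin leads in non-tuft library 1 (85.5%), Pyy in library 2 (63.6%) and Sst in library 3 (90.4%), and the tuft libraries, at sums of 0.612 to 85.96, are lower than all non-tuft libraries but library 4.

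By group mean, the order of levels in the non-tuft libraries was Sst, Ttr, Pyy, Ins1, Ins2, Ppy, Chga, Pcsk2, Iapp and Gcg. The ranges of all neighbours in this order overlapped, and the only neighbours with the same order in 5 of 5 libraries were Ins1 and Ins2. In the tuft libraries Ttr came first, above Ins1 in 5 of 5 libraries by 2.85 ± 2.15 (SD, n = 5), although their ranges overlapped, and Ppy and Gcg came last at 0. The tuft values of Ttr ranked between 1334th and 3077th from the highest of all listed genes, and the non-tuft values between 283rd and 1255th.

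Patterns over the 10 libraries were compared by the root mean square difference of log2 values after each gene was centred on its own mean, where 0 would be the same pattern. Ins1 and Ins2 were the closest pair of members (0.696), followed by Chga and Pcsk2 (1.11), and Ins1 and Gcg were the farthest apart (5.11). Outside the members, the genes nearest to Ins2 were Ghrl, the ghrelin gene (1.43), Snord87 (2.23) and Pax6, an islet transcription factor (2.26). Nearest to Ppy were Chgb, which encodes secretogranin I (1.69), Hsd17b13 (1.86) and Tpst1 (1.90), and nearest to Sst were Chgb (1.97), Scg2 (2.30) and Baiap3 (2.39). The genes nearest to Gcg, Mir155hg (1.04), Ly6c1 (1.14) and Cym (1.23), shared with it a peak in non-tuft library 5, the library with fibroblast markers. All of these distances are over the same 10 libraries, and no test was made.

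Other islet hormone and granule genes were read from a list of 40, of which 30 were in the table. Of these 30, 7 were called lower in tuft cells (23.3%, against 3.99% of all listed genes) and 1 was called higher (3.33%, against 4.32%), with a median log2 fold change of -1.44. The list is mixed, since Peg3, Dpp4, Tmem27 and Cd24a, all called, are neither hormone nor granule genes. Peg3, Dpp4 and Tmem27 were at 2.40, 5.16 and 2.84 in non-tuft library 4, where Chgb, Resp18 and Pcsk1n were at 0. These shares therefore describe the list and not granule genes alone. With 1 library left out, the count lower was 3 (non-tuft library 1, non-tuft library 5, tuft library 4, tuft library 5), 4 (non-tuft library 2, tuft library 2, tuft library 3) or 11 (non-tuft library 4), and it was 5 without non-tuft library 3 and 8 without tuft library 1. Chgb was at 7.50, 4.51, 6.62, 0 and 6.45 in non-tuft libraries, at 3.02 in tuft library 1 and at 0 in the other 4 tuft libraries (log2 fold change -4.41, limma adjusted p = 0.0290). Resp18, a granule lumen protein, fell by 2.95 on the log2 scale (limma adjusted p = 0.0318), and Cplx2, which encodes complexin 2 of the release machinery, fell by 2.04 (limma adjusted p = 0.0176). Peg3, an imprinted zinc finger gene, fell by 3.04 (limma adjusted p = 0.0104).

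The remaining 3 called genes were listed at 0 in every tuft library. Pcsk1n, which encodes the convertase inhibitor proSAAS, was at 0 to 3.81 in non-tuft libraries (limma adjusted p = 0.0269), and Tmem27, which encodes collectrin, was between the floor and 3.34 (limma adjusted p = 0.0161). Dpp4, a peptidase that inactivates incretins and is also expressed by other epithelial cells, was at 3.39 to 6.75 (limma adjusted p = 4.96e-05). Cd24a, a surface glycoprotein of many epithelial cells, was the gene called higher, at 13.11 to 15.21 in tuft against 8.54 to 10.39 in non-tuft libraries (limma adjusted p = 2.10e-04). The uncalled genes with the smallest p were Scgn, Scg3 and Gal, with adjusted p of 0.0921, 0.106 and 0.106 by limma.

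Of 26 islet transcription factors, 13 were in the table, and 1 was called in each direction (7.69% each, against 3.99% of all listed genes called lower and 4.32% called higher). Hhex, which acts in delta cells and also in duct cells, was the 1 called lower, at 2.92 to 3.80 in non-tuft and 0 to 1.88 in tuft libraries (log2 fold change -2.74, standard error 0.44, limma adjusted p = 0.00136). Like Ttr, Hhex was as high in non-tuft library 4 as in the others, at 3.80. St18 was the 1 called higher, with a log2 fold change of 3.12 (limma adjusted p = 0.00674). Neurod1, a factor of endocrine cells that drives insulin transcription, was at 4.83, 5.25, 3.05, 0 and 2.47 in non-tuft libraries, at 2.19 in tuft library 1 and at 0 in the other 4, and did not pass the test (limma adjusted p = 0.0658). Isl1 and Foxa2 also missed it (limma adjusted p of 0.0825 and 0.0983). The count of factors called lower was 6 without non-tuft library 4, 3 without tuft library 1, and 4 with the replicate number as a block.

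**Figure D4:**
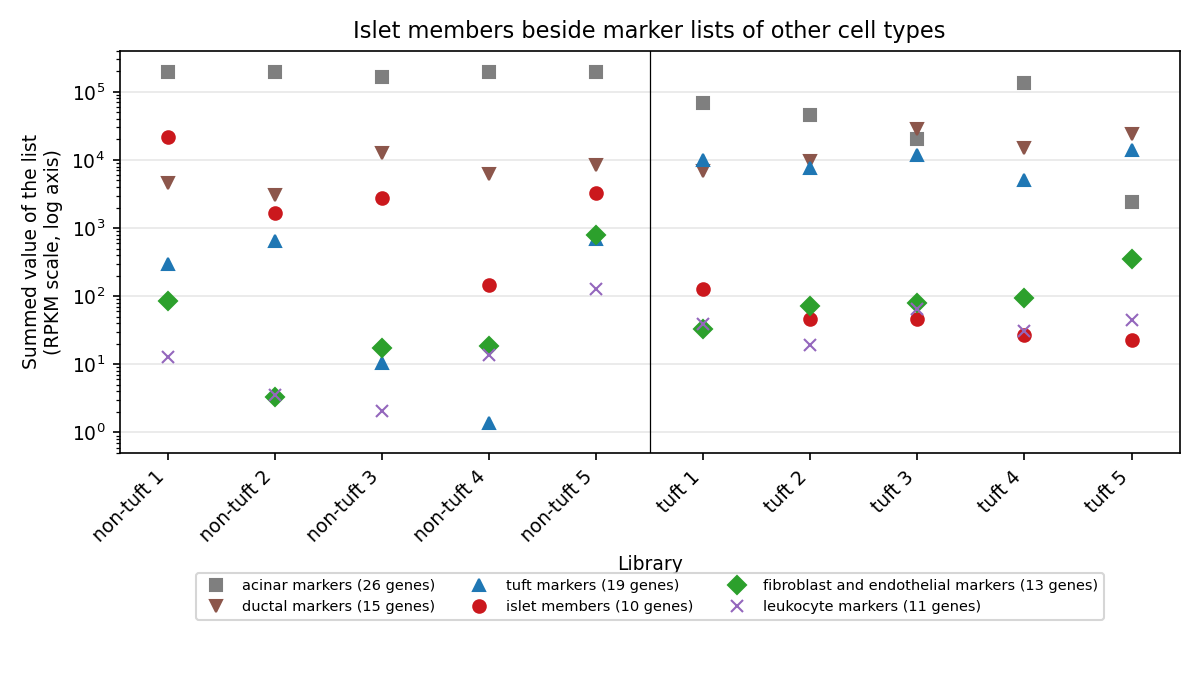
Summed linear value (RPKM scale, log axis) of the islet members and of 5 marker lists in each library, with a symbol and colour for each list and a line between the non-tuft and tuft libraries. The islet members sum to 147.1 to 22010 in non-tuft and 23.0 to 125.9 in tuft libraries, and the tuft markers run the other way. In non-tuft library 4, Ttr alone gives 144.4 of the 147.1. The 7 hormone genes sum to 2.36 there, below tuft libraries 1 (85.96), 2 (26.6) and 5 (5.94). The fibroblast and endothelial markers peak in non-tuft library 5 (803.2) and tuft library 5 (349.0).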

How the data were processed

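Sorted tuft and non-tuft cells (5 libraries each, labelled biological replicates) were profiled by Smart-Seq2 with single-end reads of 50 bases. The authors mapped reads to mm9 with Hisat2, quantified RPKM with Stringtie, removed genes of low variance, and deposited quantile-normalized log2(RPKM + 1) values for 12160 genes. The comparison columns that the authors deposited (the linear fold ratio, its p-value and false discovery rate) were not used. Counts were not used here, so depth is unknown. The highest 8407 values are identical in all libraries, as quantile normalization makes them, so a change in total RNA cannot be seen. Of the gene names, 18 had been turned into dates by spreadsheet software.

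The log2 values were fitted in R 4.3.3 with limma 3.58.1 (lmFit, then eBayes), without covariates, as in the study's methods, with Benjamini-Hochberg adjustment over all listed genes. Single members were also tested by exact two-sided permutation over 252 splits. The fit was tested on simulated data. Linear values are 2 to the log2 value, minus 1. The members and lists were chosen with earlier results of these data known. Named genes are all members, called members and up to 3 uncalled members of smallest p of the related lists, leading markers, sorting genes, and the 3 genes nearest to each of Ins2, Gcg, Ppy and Sst. Alternatives were a replicate block, another added constant, a filter on the mean, centring on ribosomal protein genes, other eBayes settings, and each library left out. Positions and transcripts came from GENCODE vM1 on NCBIM37, and promoters from RefSeq. Python 3.11.15, pandas 2.3.3 and scipy 1.17.1 were used.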

Additional observations from a re-analysis of the deposited data

Results flagged for a closer look

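Each group of 5 libraries was examined for a single library that lay far from the others by Dixon's criterion. Of the 20 groups (10 genes in tuft and in non-tuft libraries), 7 held such a library. The criterion flags about 1 in 20 groups by chance where values vary smoothly, a rate that cannot be applied here, since in Gcg (non-tuft), Iapp, Chga and Pcsk2 (tuft) the other 4 libraries were at the floor and any value well above it is flagged. In the non-tuft libraries these were Gcg in library 5, at 9.61 with the other libraries at the floor, Pyy in library 4, at 0 with the others at 7.30 to 9.89, and Pcsk2 in library 4, at 0.43 with the others at 4.33 to 5.38. In the tuft libraries, library 1 stood above the others for Pyy (5.98), Chga (2.87) and Pcsk2 (1.05), and library 2 for Iapp (0.76). The 20 groups share libraries, and the genes are not independent of each other.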

How the results depend on the processing

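With 10 added in place of 1 before taking log2, 162 genes were called higher and 116 lower, with 0 of the members, 2 of the other islet hormone and granule genes and 0 of the islet transcription factors. The fold changes of Pcsk2 (-1.59) and Ttr (-1.95) then passed the p threshold without reaching the fold. Centring on 76 ribosomal protein genes moved the median of all genes to 0.85 and gave 1356 higher and 221 lower, so that 86.0% of calls were higher, against 52.0%. It left 2 members (Ppy and Pcsk2), 3 of the other islet genes and 0 factors, and Ttr, 2.28 below the shifted median, had an adjusted p of 0.0595. When genes with a mean log2 value under 2 were left out, 3 of the other islet genes were called. With the replicate block, 4 factors and 5 members were called, with Pyy added (adjusted p = 0.0425). Same-numbered deviations correlated at 0.0619 to 0.24, and those of different numbers at -0.174 to 0.139. Non-tuft library 2 correlated best with tuft library 1 (0.124), and tuft library 3 with non-tuft library 5 (0.139). Each other library correlated highest with its own number, tuft library 1 equally with non-tuft library 2. Both kinds of cell came from 5 mice, but that a shared number marks a shared mouse is not stated, so the pairing is not settled. With both libraries numbered 5 left out, chosen after seeing the data, 1 member and 1 of the other islet genes were called. Leaving out each library in turn gave 447 to 533 genes higher, 394 to 477 lower, 2 to 7 members, 3 to 11 other islet genes and 1 to 6 factors. The sign of each member's fold change was the same in every alternative in which it was tested, and Ins1, Ins2 and Gcg were called in none. Depth is unknown, so a value at the floor sets no limit on expression.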

Other observations

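Other endocrine transcripts, named after their values were seen, also peaked in single libraries. Gip, which encodes the incretin of intestinal K cells, was at 10.20 in non-tuft library 1, at 7.97 in non-tuft library 5 and at 10.64 in tuft library 1, and was at the floor in the other 7 libraries (limma adjusted p = 0.742). Ghrl was at 9.35 and 7.97 in non-tuft libraries 1 and 2 and at 3.24 in tuft library 1, and was at most 1.67 in the rest (limma adjusted p = 0.261). Tuft library 1 thus held the highest value of Gip among all 10 libraries, while its Ins2 was at 1.95 and its Ppy at 0.

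Other genes of the secretory granule ranged from high in every tuft library to at the floor in most. Cpe, which encodes carboxypeptidase E and trims hormone precursors after the convertases, was at 6.80 to 8.07 in the tuft libraries and at 1.65 to 6.99 in the non-tuft libraries, a log2 fold change of 2.07 that did not pass the test (limma adjusted p = 0.148). Scg5, which encodes the PC2 chaperone 7B2, was at 4.01, 0, 5.46, 5.54 and 4.70 in tuft libraries 1 to 5. In non-tuft libraries 1 to 5 Scg5 was at 9.21, 7.43, 7.34, 0 and 7.42 (log2 fold change -2.34, limma adjusted p = 0.379). Scg3, a granin that binds chromogranin A, was at 5.73 in tuft library 1, at 1.41 in tuft library 2 and at 0 in the other 3. Its log2 fold change was -3.82 (limma adjusted p = 0.106).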
